A study of Mus musculus with 5 samples.

Results

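Proliferating endothelial cells are lung vascular cells that were caught while copying their DNA or dividing. They were selected on measured values, as droplet barcodes with at least 3 UMIs of *Cdh5*, *Pecam1* and *Cldn5* together, none of *Epcam*, *Pdgfra*, *Pdgfrb* and *Ptprc*, and at least 2 UMIs of *Mki67* and *Top2a* together. A UMI (unique molecular identifier) stands for 1 captured RNA molecule. The rule found 569 cells, hereafter cycling cells, among 21664 endothelial cells by the same gate without *Mki67* and *Top2a*, and among 29500 barcodes that passed the quality filter. The remaining 21095 endothelial cells are called other cells.

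The 5 libraries came from lungs of adult mice carrying floxed *Itgb1*, the gene for β1 integrin. In Itgb1 iKO mice, Cre recombinase was driven by the SP-C promoter in alveolar type 2 (AT2) epithelial cells after doxycycline, so that endothelium was not the target, and Itgb1 fl/fl littermates without the transgenes also received doxycycline. LPS, a bacterial cell wall component that injures the lung, or PBS was given into the trachea. Groups were LPS fl/fl, LPS iKO and PBS iKO at 7 days and LPS fl/fl and LPS iKO at 21 days. Cells free of CD45 and Ter119, markers of leukocytes and red cells, were sorted, and only the day 21 libraries were enriched for EPCAM-positive cells. Each group is 1 library that pools mice marked by hashtag antibodies, and 3 hashtags were in use in each, so the mouse is the replicate. All mice of a group share 1 library, so that what a library adds cannot be told apart from its condition.

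Lung capillaries hold aerocytes, large cells specialised for gas exchange that carry *Car4* and *Ednrb*, and general capillary cells, which carry *Gpihbp1* and *Plvap* and are known as the stem-like population of the capillary bed. Adult lung endothelium is largely quiescent, and its division after injury rebuilds the capillary surface. *Mki67* marks cells outside quiescence, and *Top2a* untangles DNA in S phase and mitosis.

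Kept barcodes held medians of 2219 to 5330 UMIs per library, and libraries shared 15 to 102 kept barcodes with each other (0.674 to 1.41% of the smaller library). *Itgb1* was measured in AT2 cells as a check of the labels. It stood at 299.7 CPM (UMIs per 1000000, exact Poisson 95% interval 267 to 335) in LPS fl/fl, 178 (163 to 194) in LPS iKO and 117 (78.8 to 167) in PBS iKO at day 7, and at 368 (342 to 396) in LPS fl/fl and 155 (147 to 162) in LPS iKO at day 21. In the cycling cells themselves it was 1091 CPM (1026 to 1160) in LPS fl/fl and 1156 (1100 to 1214) in LPS iKO at day 7. All intervals cover counting error only. Y-linked genes gave a UMI in 0% of endothelial cells of each LPS fl/fl mouse at day 7 and in 33.2 to 39.2% in the LPS iKO mice, so sex and genotype cannot be told apart there. In PBS iKO the shares were 1.402%, 26.6% and 30.2% in mice 1 to 3.

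Of the 569 cycling cells, 226 came from the day 7 LPS fl/fl library, 330 from the day 7 LPS iKO library, 9 from PBS iKO, 3 from day 21 LPS fl/fl and 1 from day 21 LPS iKO. Both gate genes were found in 395 cells, *Mki67* alone in 77 and *Top2a* alone in 97. The median cell held 5 UMIs of the pair and the highest 70, while 135 cells lay on the threshold with exactly 2 and 524 endothelial cells just outside it with exactly 1. At day 7 after LPS, the 32 G2 and mitotic regulators other than the gate genes summed to 383 CPM in cells with no UMI of the pair, 914 with 1 UMI, 2360 with 2 UMIs and 8205 over all cycling cells. Cells just outside the threshold thus lay between cells with no UMI of the pair and the members in these genes. They are counted among the other cells in all comparisons below.

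Cycling endothelial cells, by RNA of the gate genes, were found mainly at day 7 after LPS. The share of endothelial cells that were cycling was 3.38% (226 of 6677 cells, exact binomial 95% interval 2.96 to 3.85) in LPS fl/fl and 6.66% (330 of 4958, 5.98 to 7.39) in LPS iKO at day 7. It was 0.113% (9 of 7957, 0.0517 to 0.215) in PBS iKO, 0.253% (3 of 1184, 0.0523 to 0.739) in LPS fl/fl at day 21 and 0.113% (1 of 888, 0.00285 to 0.626) in LPS iKO at day 21. By mouse, the LPS fl/fl shares at day 7 were 2.75%, 3.03% and 3.88%, and the LPS iKO shares were 3.77%, 3.46% and 13.7%. The PBS iKO shares were 0.307%, 0% and 0%, where 0 of 2110 and 0 of 2072 cells allow shares of up to 0.142% and 0.145% by a floor of 3 counts, and up to 0.175% and 0.178% by the exact binomial interval. At day 21 they were 0%, 0% and 0.318% in LPS fl/fl and 0%, 0.352% and 0% in LPS iKO, from 142 to 314 cells per mouse. The 0 shares at day 21 allow up to 1.36 to 2.11% by the floor and up to 1.66 to 2.56% by the exact binomial interval. Every LPS mouse at day 7 lay above every PBS and every day 21 mouse. There was no PBS group of fl/fl mice, so LPS and genotype cannot be told apart between LPS fl/fl and PBS iKO. The LPS iKO mice overlapped the LPS fl/fl mice, and LPS iKO mouse 3 stood apart with 160 cycling cells of 1170.

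**Figure D1:**
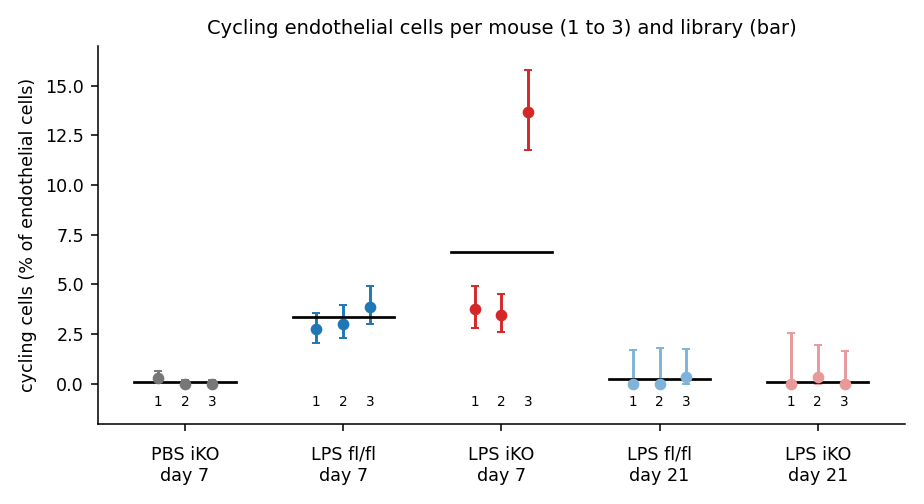
Cycling cells as a percentage of endothelial cells (vertical axis) in each mouse, numbered 1 to 3, of the 5 groups (horizontal axis). Points carry exact binomial 95% intervals and horizontal bars give the whole library. The LPS mice at day 7 sit between 2.75% and 13.7%, above all mice of the other 3 groups, and LPS iKO mouse 3 lies far above the rest.

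The mean share was 6.97% ± 5.81 (SD, n = 3) in LPS iKO and 0.102% ± 0.177 (n = 3) in PBS iKO at day 7, a difference of 6.87 percentage points (exact permutation p = 0.1, two-sided, and 0.167 adjusted over 5 contrasts, where 0.1 is the lowest p that groups of 3 mice can reach). Without LPS iKO mouse 3 the difference was 3.51 points, and with at least 1 or at least 4 *Mki67* and *Top2a* UMIs in the gate it was 11.58 or 4.31 points. Against LPS fl/fl at day 7 (3.22% ± 0.586, n = 3) the LPS iKO mean was 3.75 points higher (exact permutation p = 0.3, adjusted 0.375), and without LPS iKO mouse 3 the difference was 0.393 points. Day 7 exceeded day 21 by 3.12 points in LPS fl/fl and by 6.85 points in LPS iKO (each exact permutation p = 0.1, adjusted 0.167), the latter 3.498 points without LPS iKO mouse 3. With at least 1 or at least 4 UMIs in the gate these were 6.97 or 2.01 points in LPS fl/fl and 11.58 or 4.25 in LPS iKO, and the difference between genotypes at day 7 was 4.42 or 2.35. Between the genotypes at day 21 the means of 0.117% and 0.106% differed by 0.0112 points (exact permutation p = 1), with 1 single-tag cycling cell in each library. The enrichment of the day 21 libraries and the day cannot be told apart.

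Cycling cells were deeper than other cells, with medians of 3531.5 against 2397 UMIs in LPS fl/fl and 3572.5 against 2465.5 in LPS iKO at day 7, and a gate on counts takes deep cells more readily. After each cell was thinned to 1500 UMIs, which left out 910 to 1751 endothelial cells per day 7 library, the shares were 2.55% in LPS fl/fl, 4.92% in LPS iKO and 0.0806% in PBS iKO. More than 1 hashtag, the sign of a droplet with cells of several mice, was carried by 22.1% of cycling and 14.9% of other cells in LPS fl/fl and by 13.9% and 9.55% in LPS iKO. Cells with more than 1 hashtag do not enter values per mouse. In LPS iKO mouse 3 the median depth of all endothelial cells was 2724.5 UMIs, against 2419 and 2483 in mice 1 and 2 of that library, and its thinned share was 9.14%.

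Within the same lungs, endothelial cells were compared with mesenchymal cells (cells with *Pdgfra* or *Pdgfrb*). Over the 6 LPS mice at day 7 the shares were 5.10% ± 4.23 and 0.85% ± 1.33 (SD, n = 6), a difference of 4.24 points, with the endothelial share higher in 6 of 6 mice (two-sided exact paired permutation test, p = 0.03125, the smallest that 6 pairs allow). The exact p was 0.125 when the gate took cells with at least 1 UMI (5.06 points) and when cells were assigned by a highest tag at least 5 times the second (4.20 points). Mesenchymal cells were few, 22 to 106 per mouse, and 4 of 6 mice had none cycling. By a floor of 3 counts, the 0 shares of these 4 mice allow up to 7.14 to 13.6%. That is above their endothelial shares of 2.75 to 3.77%, so these mice cannot show that mesenchymal cells cycled less often. Without LPS iKO mouse 3 the difference was 2.92 points (exact p = 0.0625, the smallest with 5 pairs). Ciliated cells, which do not divide, gave 4 of 168 cells past the *Mki67* and *Top2a* threshold in LPS fl/fl (2.38%, 0.652 to 5.98) at a median depth of 6852.5 UMIs and 0 of 164 once thinned to 1500 UMIs, where endothelial cells kept 2.55%. In LPS iKO they gave 1 of 36, and 0 of 35 once thinned. Counts this small limit how low the ciliated share can be said to be. The ciliated gate left out no cells for markers of another cell type. AT2 cells gave 2 of 112 in LPS fl/fl and 8 of 380 in LPS iKO, and after thinning 1 of 110 and 3 of 376.

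Cycling cells were mostly of the general capillary type. Each cell, thinned to 1500 UMIs, was classed from 10 aerocyte and 8 general capillary markers when at least 3 UMIs of these were present, as aerocyte type with at least 2 in 3 from aerocyte markers and as general type with at most 1 in 3. These classes are ranges of a count ratio and not cell types. Over the 6 LPS mice at day 7, aerocyte-type cells made up 2.99% ± 1.76 of classed cycling cells and 16.9% ± 4.65 of classed other cells (SD, n = 6). The difference of −13.9 points was in the same direction in 6 of 6 mice (two-sided exact paired permutation test, p = 0.03125). By mouse, the aerocyte-type share of cycling cells was 2.17%, 2.17% and 1.92% in LPS fl/fl and 6.52%, 2.33% and 2.82% in LPS iKO, and that of other cells 21.4%, 21.0% and 20.9% in LPS fl/fl and 12.3%, 11.7% and 14.3% in LPS iKO. General-type cells made up 92.8% ± 5.32 of cycling and 78.6% ± 4.73 of other cells, higher in 5 of 6 mice (exact paired permutation p = 0.0625). The exception was LPS iKO mouse 1, with 82.6% against 84.1%.

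Turned around, 4.77% of general-type cells (178 of 3730, exact interval 4.11 to 5.51) and 0.435% of aerocyte-type cells (5 of 1149, 0.141 to 1.01) were cycling in LPS fl/fl at day 7. In LPS iKO these were 8.15% (262 of 3214, 7.23 to 9.15) and 2.17% (12 of 553, 1.13 to 3.76). Mixed cells were cycling at 3.85% (10 of 260) in LPS fl/fl and 8.81% (17 of 193) in LPS iKO. Cells not classed were cycling at 9.48% (11 of 116) and 15.9% (14 of 88). The aerocyte type was thus the low one, and a high rate was not particular to the general type. Over the 6 mice the general-type rate was 5.23 points above the aerocyte-type rate, higher in 6 of 6 (exact paired permutation p = 0.03125), and 3.52 points without LPS iKO mouse 3. By mouse, general-type cells were cycling at 3.90%, 4.45% and 5.31% in LPS fl/fl and at 4.06%, 3.95% and 17.1% in LPS iKO. The genotypes differed by 3.81 points in this rate, LPS iKO minus LPS fl/fl (exact permutation p = 0.8). Without LPS iKO mouse 3 this difference was −0.547 points. In PBS iKO 5 of 4445 general-type and 1 of 1505 aerocyte-type cells were cycling. At least 3 UMIs of arterial markers were found in 20.6% of cycling and 26.6% of other cells in LPS fl/fl and in 21.0% and 30.2% in LPS iKO, and of venous markers in 5.39% and 8.89%, and 4.26% and 9.64%. For lymphatic markers these were 3.43% and 2.44% in LPS fl/fl and 0.984% and 1.74% in LPS iKO.

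**Figure D2:**
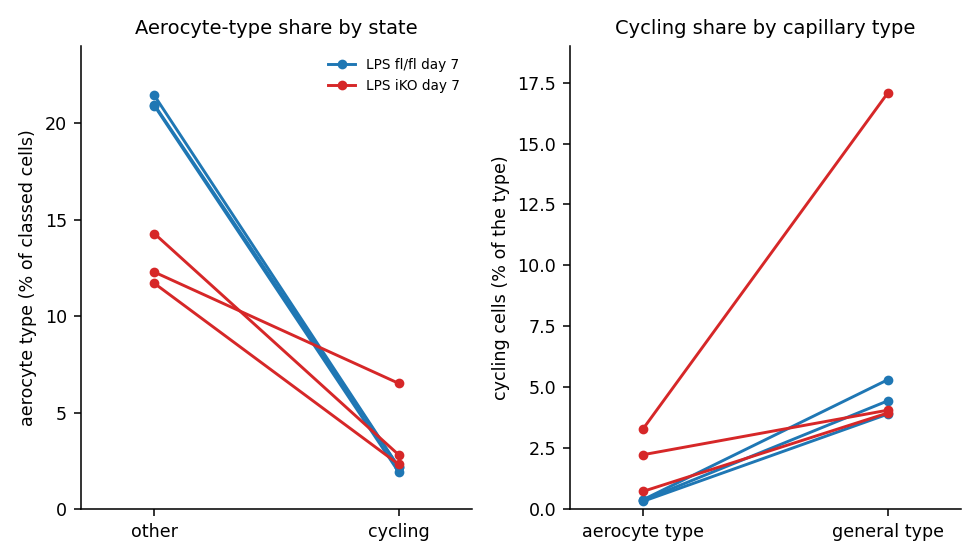
Left, aerocyte-type cells as a percentage of classed cells (vertical axis) among other and cycling cells, and right, cycling cells as a percentage of each capillary type. Each line is 1 of the 6 LPS mice at day 7, blue for LPS fl/fl and red for LPS iKO. All 6 lines fall on the left and rise on the right, the steepest rise being LPS iKO mouse 3, from 3.31% to 17.1%.

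The members differed in where in the cell cycle they lay. Genes of DNA copying and nucleotide supply, used in S phase, were counted in each cycling cell against G2, mitotic and centromere genes, used as the cell prepares to divide and divides, with the gate genes left out. This split was made after the data were seen. In LPS fl/fl at day 7 the S phase genes led in 46 cells (20.4%) and the mitotic genes in 175 (77.4%), and in LPS iKO in 96 (29.1%) and 228 (69.1%). Only 16 and 24 cells, respectively, lay within 1 UMI of equality. The mitotic-led share per mouse was 66.0%, 81.1% and 84.1% in LPS fl/fl and 71.2%, 66.7% and 69.4% in LPS iKO, and the means differed by −8.03 points (exact permutation p = 0.4). The LPS iKO mice, mouse 3 included, lay inside the range of the LPS fl/fl mice. All 9 cycling cells of PBS iKO were mitotic-led, with medians of 54 mitotic and 20 S phase UMIs, and 2 of them lay within 1 UMI of equality. Because *Top2a* and *Mki67* are themselves highest late in the cycle, the gate favours mitotic cells. The UMIs were also not scaled for the size or level of the lists. Over cycling cells at day 7 after LPS, the S phase lists (34 and 14 genes) summed to 2742 and 1971 CPM. The G2 and mitotic list (32 genes) and the centromere list (24 genes) summed to 8205 and 4336 CPM. A mitotic lead is thus not a measure of the share of cells in G2 or mitosis.

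**Figure D3:**
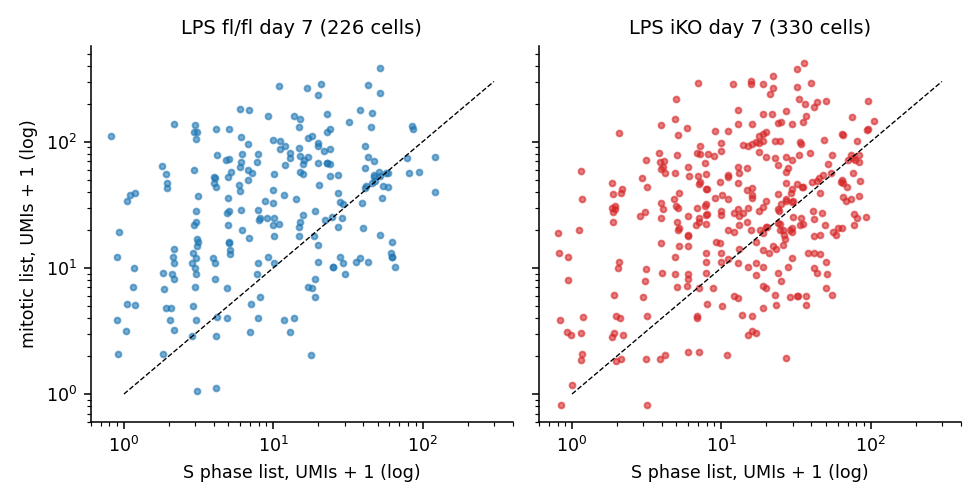
UMIs of S phase genes (horizontal axis, log scale after adding 1) against UMIs of G2, mitotic and centromere genes (vertical axis, same scale) in each cycling cell of the LPS fl/fl and LPS iKO libraries at day 7. Points are jittered, and the dashed line marks equality. Most cells lie above the line, 77.4% in LPS fl/fl and 69.1% in LPS iKO.

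Genes of cycling cells were compared with those of other cells in the 6 LPS mice at day 7, which had 51 to 160 single-tag cycling cells each, by edgeR's quasi-likelihood test on UMIs summed per mouse and state, with the mouse as a block and Benjamini-Hochberg adjustment over all genes tested. No PBS or day 21 mouse had 10 cycling cells. Of 10300 genes tested, 1606 (15.6%) were higher and 1569 (15.2%) lower in cycling cells at an adjusted p under 0.05, and the median log2 change over all of them was −0.05. All log2 changes below are cycling over other cells. The gate genes get no test. As a description, *Mki67* (GRCm38 chromosome 7, 135689784 to 135716361) was at 946 CPM in cycling and 7.96 in other cells, *Top2a* (chromosome 11, 98992943 to 99024189) at 1263 and 8.76, and *Cdh5*, the cadherin of endothelial junctions, at 1558 and 2310. Cell cycle genes accompany the gate in the same cells, so their counts below describe what the gate took.

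Among genes that copy DNA, 33 of 34 tested were higher and none lower, with a median log2 change of 2.65. *Mcm6* (chromosome 1, 128331590 to 128359664), a subunit of the replicative helicase, was at 137, 111 and 118 CPM in cycling cells of the LPS fl/fl mice and 161, 210 and 169 in LPS iKO, against 36.1, 41.0 and 39.6 and 49.2, 51.2 and 78.5 in other cells. The states did not overlap, and the log2 change was 1.57 ± 0.14 (SE, adjusted p = 9.26e-11, edgeR). *Pcna*, the sliding clamp of DNA polymerase, rose by 1.89 ± 0.14, *Mcm4*, another helicase subunit, by 1.89 ± 0.15 and *Slbp*, which binds histone mRNA, by 2.22 ± 0.11. Of 14 genes of nucleotide supply, 12 were higher. *Rrm2* (chromosome 12, 24708241 to 24714146), the regulated subunit of ribonucleotide reductase, stood at 421.5, 540.0 and 379 CPM in LPS fl/fl and 504, 647 and 585 in LPS iKO cycling cells, against 2.27 to 11.2 in other cells (log2 6.54 ± 0.17). Its partner subunit *Rrm1* rose by 2.99 ± 0.14, thymidylate synthase *Tyms* by 3.38 ± 0.16 and thymidine kinase *Tk1* by 5.14 ± 0.23.

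Genes of division rose further. Of 32 G2 and mitotic regulators, 31 were higher (median log2 6.22) and 1, *Pttg1*, was lower. *Ube2c* (chromosome 2, 164769898 to 164778822), which marks mitotic cyclins for destruction, was at 537, 1156 and 1150 CPM in LPS fl/fl and 1225, 1193 and 954 in LPS iKO cycling cells, against 5.08 to 23.3 in other cells. Its log2 change was 6.67 ± 0.16 (adjusted p = 1.53e-25, edgeR), and the lowest of the cycling values belonged to LPS fl/fl mouse 1. Cyclin A, *Ccna2*, rose by 6.65 ± 0.17, survivin, *Birc5*, by 6.42 ± 0.16, and *Ube2s*, which works with *Ube2c*, by 2.90 ± 0.08. *Pttg1*, securin, which inhibits separase until anaphase, went the other way at −0.56, and it was named after its value was seen. All 26 spindle and kinesin genes were higher (median 6.27), among them the tubulins *Tubb5* (1.79 ± 0.07), *Tuba1b* (2.49 ± 0.09) and *Tubb4b* (2.02 ± 0.09) and the microtubule destabiliser *Stmn1* (2.49 ± 0.08). All 24 centromere and kinetochore genes were higher (median 5.40), as were all 26 genes of condensin, cohesin and chromatin (median 2.86). Examples are the centromeric histone *Cenpa* at 5.27 ± 0.15 and its chaperone *Hjurp* at 3.24 ± 0.11, *Cenpf* at 6.03 ± 0.18, the kinetochore scaffold *Knl1* at 6.86 ± 0.19, the variant histone *H2afz* at 2.89 ± 0.08 and the chromatin proteins *Hmgb2* at 4.43 ± 0.12, *Hmgb1* at 1.35 ± 0.07 and *Hmgn2* at 2.56 ± 0.08. Without LPS iKO mouse 3 the counts higher in these 6 lists were the same except for nucleotide supply, with 11.

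The promoters of a few of these genes, with and without matches, are shown because S phase genes are known targets of E2F and mitotic genes of complexes that read the CHR and CCAAT elements. Each line below holds the 150 bases upstream of a RefSeq start (GRCm38.p6, 5′ to 3′ on the gene's strand), with matches in capitals.
Mcm6, chr1:128359706-128359855, minus strand: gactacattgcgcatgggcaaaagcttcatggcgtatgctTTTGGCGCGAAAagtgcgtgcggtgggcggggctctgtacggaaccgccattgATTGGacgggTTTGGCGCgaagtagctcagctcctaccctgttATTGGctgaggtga
Slbp, chr5:33652575-33652724, minus strand: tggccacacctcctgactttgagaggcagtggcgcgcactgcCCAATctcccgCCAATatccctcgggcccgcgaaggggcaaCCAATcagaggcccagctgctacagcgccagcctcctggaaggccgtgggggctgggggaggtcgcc
Ube2c, chr2:164769779-164769928, plus strand: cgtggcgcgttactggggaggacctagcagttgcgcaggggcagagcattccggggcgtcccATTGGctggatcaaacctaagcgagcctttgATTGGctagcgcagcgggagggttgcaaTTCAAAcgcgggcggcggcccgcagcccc
Birc5, chr11:117849087-117849236, plus strand: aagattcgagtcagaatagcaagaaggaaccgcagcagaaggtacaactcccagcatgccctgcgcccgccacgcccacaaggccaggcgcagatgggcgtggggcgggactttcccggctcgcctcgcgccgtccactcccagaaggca
Capitals mark the CHR letters TTTGAA, the CCAAT letters and 4 E2F-type spellings (TTTCCCGC, TTTCGCGC, TTTGCCGC and TTTGGCGC), searched on both strands, so that ATTGG and TTCAAA are reverse matches. Matches of the E2F-type spellings may overlap, as at the first site of *Mcm6*. *Mcm6* held 3 E2F-type and 2 CCAAT matches, *Slbp* 3 CCAAT matches and no E2F-type match, *Ube2c* a CHR match and 6 CCAAT matches in its full window, and *Birc5* none. Of the other promoters examined, *Pcna* held a CCAAT match and no E2F-type match, and *Ube2s* no match.

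Over windows from 250 bases before to 50 after the start, CHR letters were found for 14 of 26 G2 and mitotic regulators with a promoter sequence (53.8%), 19 of 23 spindle and kinesin genes (82.6%) and 9 of 21 centromere genes (42.9%), against 4 of 25 genes of DNA copying (16.0%) and 4891 of 27025 genes in all (18.1%). E2F-type letters were found for 10 of 25 genes of DNA copying (40.0%), 5 of 18 of condensin, cohesin and chromatin (27.8%), 6 of 13 of cell cycle entry (46.2%), 1 of 26 G2 and mitotic regulators (3.85%) and 0 of 12 of nucleotide supply. The share was 2.32% of all genes and 4.52% of the genes tested here, for which CHR letters were at 11.5% and CCAAT letters at 39.1%. CCAAT letters were found for 20 of 26 G2 and mitotic regulators (76.9%), 17 of 25 genes of DNA copying (68.0%) and 38.0% of all genes. A match of letters is a description and not a bound site.

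Entry into the cycle was measured through cyclins and E2F factors, of which 12 of 18 were higher and 2 lower (median 0.97). Over all genes tested these shares were 15.6% and 15.2%. *Ccne2*, the E-type cyclin that starts S phase, was at 195, 177 and 85.0 CPM in LPS fl/fl and 172, 121 and 151 in LPS iKO cycling cells, against 3.48 to 9.58 in other cells (4.73 ± 0.21). *Ccne1* rose by 4.88, *E2f8*, a repressor late in the cycle, by 6.55, and *Cdk4*, the partner of D-type cyclins, by 0.75 ± 0.09. The D-type cyclins themselves did not follow. *Ccnd1* was lower at −0.39 ± 0.13 (adjusted p = 0.0175, edgeR) in 5 of 6 mice, and *Ccnd2* at −1.16.

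Of 19 cell cycle inhibitors and p53 targets tested, 6 were higher and 6 lower, against 15.6% and 15.2% of all genes tested. *Cdkn2c* (p18, chromosome 4, 109660876 to 109667189), an inhibitor of CDK4 and CDK6, was at 348, 353 and 373 CPM in LPS fl/fl and 438, 389 and 353 in LPS iKO cycling cells, against 13.4 to 22.2 in other cells (4.48 ± 0.12, adjusted p = 3.53e-24, edgeR). The narrow range of the 6 mice lay far above the other cells. *Cdkn2d* (p19) rose by 3.21 ± 0.13. *Cdkn1a* (p21) was higher by 0.54 ± 0.13 in 5 of 6 mice, and its level in other cells differed between groups, 414 CPM in LPS fl/fl and 200.1 in LPS iKO, while cycling cells were at 429.7 and 427. *Cdkn2b* (p15) was lower at −1.63, *Cdkn1c* (p57) at −1.07 and the antiproliferative *Btg2* at −0.45 ± 0.13.

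**Figure D4:**
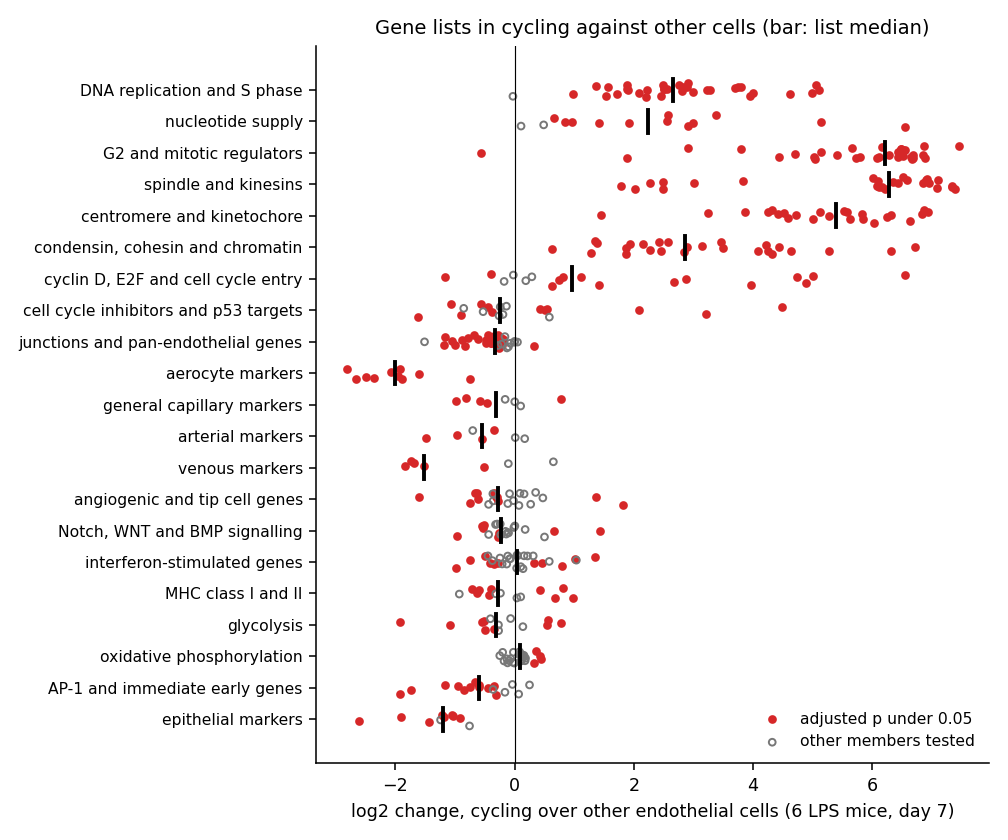
Fitted log2 change of cycling over other endothelial cells (horizontal axis) for each tested member of 21 gene lists (vertical axis). Filled points have an adjusted p under 0.05, open points do not, and bars give list medians. Cell cycle lists lie to the right, with medians from 0.97 to 6.27, and aerocyte markers to the left with a median of −2.01.

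Endothelial identity genes were present in cycling cells at lower levels. Over all genes tested, 15.2% were lower and 15.6% higher. Of 36 junction and pan-endothelial genes outside the gate, 25 were lower and 1, *Ctnnb1* (β-catenin, 0.32), higher, with a median of −0.34, and without LPS iKO mouse 3 22 were lower. *Ramp2* (chromosome 11, 101246028 to 101259546), the partner protein of the adrenomedullin receptor, was at 2634, 2604 and 2095 CPM in LPS fl/fl and 2904, 2723 and 2443 in LPS iKO cycling cells, against 4123 to 5271 in other cells. The states did not overlap (log2 −0.89 ± 0.07, adjusted p = 8.26e-13, edgeR). *Calcrl*, the receptor that *Ramp2* escorts, was at 1549 to 2383 CPM in cycling and 2872 to 3711 in other cells (−0.83 ± 0.07). Smaller falls were found for *Klf2*, a flow-sensing transcription factor (−0.40 ± 0.07), and *Egfl7*, a secreted endothelial factor (−0.30 ± 0.07). Thrombomodulin, *Thbd*, was lower at −1.16, angiotensin-converting enzyme, *Ace*, at −1.01, *Jam3* at −1.18 and *Emcn* at −0.79.

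All 10 aerocyte markers were lower, which repeats the class result, since the same 10 markers made the classes. *Car4* (chromosome 11, 84957786 to 84966044), carbonic anhydrase of the aerocyte surface, was at 706, 439 and 301 CPM in LPS fl/fl and 488, 457 and 347 in LPS iKO cycling cells, against 1816 to 2213 and 1250 to 1485 in other cells (log2 −1.92 ± 0.10). *Ednrb*, the endothelin B receptor, stood at −2.81, *Fibin* at −2.66 and *Tbx2*, a transcription factor, at −2.08, all called lower. Of 8 general capillary markers, 4 were lower and 1 higher, against 15.2% and 15.6% of all genes tested, so that 1 higher gene lies near the latter share. *Gpihbp1*, which holds lipoprotein lipase at the capillary wall, was at 701, 767 and 686 CPM in LPS fl/fl and 848, 1009 and 944 in LPS iKO cycling cells, against 1290 to 1656 in other cells (−0.82 ± 0.07). *Sema3c*, a semaphorin, was lower at −0.58 ± 0.08 and the incretin receptor *Glp1r* at −0.99 ± 0.13, and *Plvap*, the diaphragm protein of fenestrae, stood at −0.16 ± 0.07 (adjusted p = 0.0681, edgeR). The gene that rose was *Lpl*, lipoprotein lipase (0.78 ± 0.13), whose value of 574 CPM in LPS fl/fl mouse 1 drew 55.0% of its UMIs from a single barcode, and the other 5 mice were at 105 to 272.5 CPM. The list medians were −2.01 for aerocyte and −0.32 for general capillary markers, against −0.05 for all genes. Against other cells nearest in depth all 10 aerocyte markers were lower, while of the general capillary markers 3 were lower and 2 higher. In LPS iKO mouse 3 these nearest cells had a median of 3101 UMIs against 3715.5 in cycling cells. Depth was thus not fully matched in that mouse, here and wherever this setting is used.

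Because fewer cycling cells were classed as aerocyte type, the comparison was repeated within general-type cells, a setting added after the data were seen. The classes rest on marker RNA, so fewer aerocytes cannot be told apart from lower aerocyte markers in cycling cells. Cells were classed here at their own depth, without thinning. LPS fl/fl mouse 1 thus gave 49 general-type cycling cells, against 43 after thinning. Called genes then numbered 2932, of which 2627 were shared with the full comparison and 2621 of these had the same sign. *Ramp2* was at −0.72 and *Calcrl* at −0.84 within this type. *Kdr*, the main VEGF receptor, went from −1.06 ± 0.10 over all cells to −0.25. *Itgb5* (β5 integrin) went from −2.38 to 0.19, *AW112010* from −2.32 to 0.12 and *Icam1*, a leukocyte adhesion molecule, from −0.44 to 0.18, each without a call in the narrower comparison. Capillary markers set the class, so their values within it are a description with no test. *Apln*, the apelin ligand and an aerocyte marker, was at 15.1 to 66.5 CPM in cycling and 115 to 166 in other cells, while within general-type cells its log2 change was 1.06. Its receptor *Aplnr*, a general capillary marker, was at −0.47 ± 0.14 over all cells and −0.70 within the type.

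Among genes outside the cell cycle lists, the 8 largest rises of genes at 50 CPM or more were those of *Arhgef39* (7.74 ± 0.34), *Sapcd2* (7.39), the minus-end kinesin *Kifc1* (7.34), *Iqgap3* (7.22), *Gas2l3* (7.18), the cohesion factor sororin, *Cdca5* (7.06), *Ankle1* (7.02) and *Troap* (7.02), each higher in 6 of 6 mice. The 8 largest falls were *Ednrb*, *Fibin*, *Sirpa* (−2.49), *Slfn5* (−2.48), *Itgb5*, *AW112010*, *Kdm5b* (−2.23) and *Tcp11l2* (−2.19). *Slfn5*, of the interferon-inducible Schlafen family, was at 57.9, 30.3 and 19.6 CPM in LPS fl/fl and 55.4, 73.6 and 32.3 in LPS iKO cycling cells, against 193 to 265 in other cells, and it stayed at −2.55 within general-type cells. *Kdm5b*, a demethylase of histone H3 at promoters, was at 5.05 to 16.6 CPM against 56.8 to 65.7, and at −2.34 within general-type cells. Both thus kept their call within the general type, while *Itgb5* and *AW112010* lay near 0 there without one.

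Vessel growth genes did not rise as a group. The counts of this paragraph stand against 15.6% higher and 15.2% lower over all genes tested. Of 23 angiogenic and tip cell genes tested, 9 were lower and 2 higher (median −0.28), and against other cells nearest in depth 6 were lower and 0 higher. The higher genes were *Nid2*, a basement membrane linker (1.82), and the chemokine receptor *Cxcr4* (1.37). The basement membrane collagens *Col4a1* (−0.32 ± 0.07) and *Col4a2* (−0.30 ± 0.09), *Sparc* (−0.28 ± 0.07) and the VEGF co-receptor *Nrp1* (−0.67 ± 0.08) were lower, and so were *Vegfa* (−0.64 ± 0.10) and the decoy receptor *Flt1* (−0.48 ± 0.11). *Nrp1* lay at −0.22 within general-type cells. Of 21 Notch, WNT and BMP genes, 6 were lower and 2 higher, against 15.2% and 15.6% of all genes tested. Among the lower genes were the BMP receptors *Acvrl1* (−0.52 ± 0.08) and *Bmpr2* (−0.28 ± 0.07), and the higher ones were the ligand *Bmp4* (1.43) and *Id2* (0.66). Against other cells nearest in depth 3 of these 21 were lower and 2 higher, in a fit that called 1161 genes lower and 1558 higher in all. Of 17 immediate early and AP-1 genes, 12 were lower and none higher. *Jun* was at 1533, 1201 and 817 CPM in LPS fl/fl and 1419, 1504 and 1376 in LPS iKO cycling cells, against 1608 to 2665 in other cells (−0.66 ± 0.07), and *Fos* was lower by 0.96 ± 0.10 on the log2 scale. Of 7 venous markers 5 were lower, with von Willebrand factor, *Vwf*, at −1.53 ± 0.17, and of 7 arterial markers 4, with the connexin *Gja4* at −0.55 ± 0.09. The chemokine *Cxcl12* was lower at −1.12 ± 0.11.

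**Figure D5:**
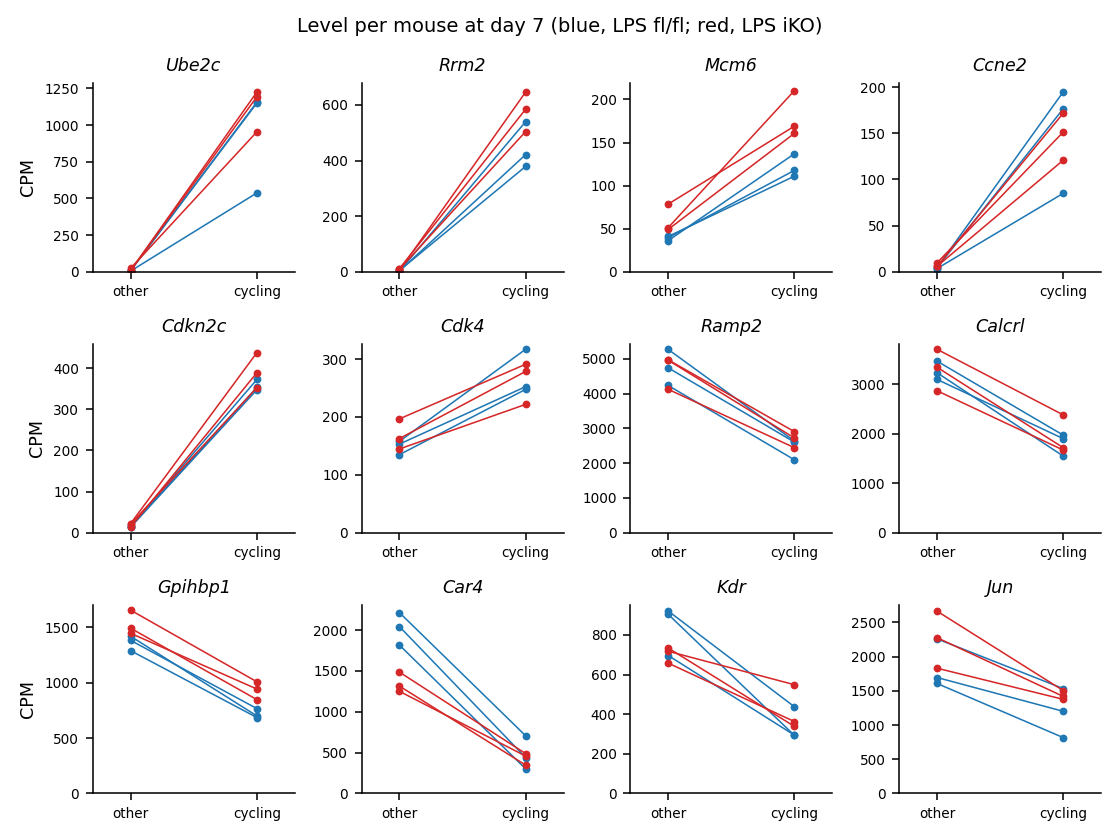
Level in CPM (vertical axes, from 0) of 12 genes in other and cycling cells, each line being 1 of the 6 LPS mice at day 7 (blue, LPS fl/fl; red, LPS iKO). The 6 cell cycle genes rise in every mouse, and *Ramp2*, *Calcrl*, *Gpihbp1*, *Car4*, *Kdr* and *Jun* fall in every mouse.

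Markers of other cell types were read as lists. Their counts stand against 15.6% higher and 15.2% lower over all genes tested. Of 14 epithelial markers 10 were tested, 8 were lower and none higher, and their summed level was 1549 to 3664 CPM in cycling and 3589 to 6261 in other cells over the 6 mice. Against other cells nearest in depth, 5 were lower. *Sftpc*, the AT2 surfactant gene, was at 673 to 2112 CPM in cycling and 1262 to 3610 in other cells. The summed level of 20 immune markers was 73.8 to 175 CPM in cycling and 149.8 to 270 in other cells, with 14 of them, among them *Cd3e*, *Ms4a1*, *Itgam* and *C1qa*, at 0 UMIs in all cycling cells. Of 11 mesenchymal markers tested 1 was higher and 4 lower, and without LPS iKO mouse 3 2 were higher and 0 lower. They summed to 156 to 1264 against 208 to 551 CPM, erythroid and platelet markers to 3.27 to 26.3 against 18.3 to 39.0, and mesothelial markers to 0 to 5.54 against 0 to 9.57. Lymphatic markers summed to 38.8 to 1726 against 297 to 1643, with *Ccl21a* lower at −1.02 ± 0.26. The part of these levels in the results was not tested.

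Between genotypes, few genes of cycling cells were called with 3 mice a group. In the same kind of test over the summed cycling cells, 13 of 4219 genes (0.308%) were higher and 4 (0.0948%) lower in LPS iKO than in LPS fl/fl at day 7, and these include *Xist* and *Ddx3y*, which follow sex. Unadjusted, 175 and 135 genes had p under 0.05. Other cells of the same mice, which are far more, gave 394 of 11232 genes called (3.51%). Without LPS fl/fl mouse 2 the genes higher numbered 6, and over the settings that leave out 1 mouse 9 to 13 of the 17 calls were kept. None of the genes tested in the 7 cell cycle lists was called. *Tuba1a*, an α-tubulin, was at 163, 141 and 101 CPM in LPS fl/fl and 826, 647 and 823 in LPS iKO cycling cells (log2 2.54 ± 0.21, adjusted p = 2.47e-08, edgeR), and other cells differed likewise (2.85). *Gm8797*, a gene model that may share reads with near copies, was lower (−3.67 ± 0.35, and −4.06 in other cells), as were *Hist1h2bc*, a histone gene (−1.32 ± 0.20), and *Rps2*, a ribosomal protein gene (−0.89 ± 0.19). *Abca3*, a lipid transporter of AT2 cells (1.72 ± 0.29), *Nr4a1*, an immediate early nuclear receptor (1.53 ± 0.32), *Dynlt1f* (1.499 ± 0.26) and *Dpm1* (1.93 ± 0.43) were higher, with log2 changes of 1.63, 1.497, 1.52 and 2.34 in other cells. *Cyr61*, a secreted matrix protein, was higher by 1.45 ± 0.28 and *Klf2* by 0.75 ± 0.17 (adjusted p = 0.0456, edgeR). The groups did not overlap in any gene named here. These genes were chosen by their adjusted p in the same mice, so this follows largely from the choice and adds no support. *Sftpc* was also higher, by 1.34 ± 0.16, in cells that lack *Epcam*, and it was higher in every LPS iKO mouse (1789 to 2112 CPM) than in any LPS fl/fl mouse (673 to 880). *Sftpa1*, another AT2 surfactant gene, was higher by 1.15 ± 0.24 (adjusted p = 0.0222, edgeR), and by 0.47 in other cells. The part of AT2 RNA in these differences was not tested. With no filter on low counts, 47 genes were higher and 41 lower.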

How the data were processed

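Droplet libraries of sorted lung cells were analysed from the deposited counts. The authors made these with Cell Ranger 3.1 on mm10, per the labels, as whole UMI counts per gene and hashtag antibody, with no normalization. Their later correction for free RNA, filtering and doublet removal are not in these values. Kept barcodes had 700 or more genes and between 0.1 and 15% of UMIs from mitochondrial genes. Hashtags holding 1% or more of all tag counts of a library were taken as in use, and cells at 4-fold the background of a tag were assigned to it. Only single-tag cells enter values per mouse. No doublet caller was run, and cells with several tags are reported instead.

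Members and gene lists were chosen with earlier results of these data known. Shares carry exact binomial intervals, and mice were compared with exact permutation tests in scipy 1.17.1. UMIs summed per mouse and state, in mice with at least 10 cells of each, were tested with edgeR 4.0.16 (TMM, default filter, quasi-likelihood test) and as alternatives with the size factors and Wald test of DESeq2 1.42.0, and the fits were tested on simulated data. Named genes were the 4 most abundant members of a list, the 8 largest rises and 8 largest falls outside the cell cycle lists, 6 genes per direction between genotypes, and capillary and VEGF genes. *Pttg1*, *Ccne1*, *E2f8*, *Ccnd2*, *Cdkn2b*, *Cdkn1c*, *Ctnnb1*, *Thbd*, *Ace*, *Jam3*, *Emcn*, *Nid2*, *Cxcr4*, *Bmp4*, *Id2*, *H2-T23*, *Tap1*, *Psmb9*, *Gbp5*, *Aldoa* and *Lrg1* were named after their values were seen, and the interaction, the general-type comparison, the phase split, the rates per capillary type and the promoter motifs were added then. No gene test was made at day 21 or against PBS iKO, where no mouse had 10 cycling cells. P-values measure the spread between these mice. Mouse was the block because both states came from the same animal. Coordinates are from GENCODE vM21 (GRCm38), matched by gene identifier, and promoters from RefSeq.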

Additional observations from a re-analysis of the deposited data

Results flagged for a closer look

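The change from other to cycling cells differed between LPS fl/fl and LPS iKO mice at day 7 for 10 of 10989 genes, by the interaction of state and genotype in edgeR (adjusted p under 0.05, a fit added after the data were seen). The values are log2 differences, LPS iKO minus LPS fl/fl. *Fabp4* differed by −6.27, *Mt1* by −2.37, *C3* by −3.14 and *Fn1* by −2.49. In LPS fl/fl mouse 1, a single barcode of 21574 UMIs held 345 of 345 *Fabp4*, 130 of 137 *Mt1*, 38 of 40 *C3* and 6 of 7 *Fn1* UMIs of its 53 cycling cells, and *Fabp4* was at 1818 CPM there and at 0 to 6.54 in the other 5 mice. The values of *Fabp4*, *Mt1* and *C3* in cycling LPS fl/fl cells thus rest largely on 1 barcode. For *Fn1*, LPS fl/fl mouse 3 was higher than mouse 1, at 45.8 against 36.9 CPM, with 9 of its 14 UMIs in another barcode.

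*Cdkn1a* differed by 1.08, with cycling cells at 429.7 and 427 CPM in LPS fl/fl and LPS iKO and other cells at 414 and 200.1. *Edn1*, the endothelin ligand, differed by −1.25, with cycling cells at 108 and 91.0 CPM and other cells at 131 and 257. *Emp2*, an aerocyte marker, differed by 1.496, the heat shock genes *Hspa1a* by 1.84 and *Hspa1b* by 1.63, and *Pclaf*, a partner of PCNA, by −1.93. In LPS iKO mouse 1, a single barcode of 9620 UMIs held 18 of 22 *Hspa1a* and 22 of 25 *Hspa1b* UMIs of its 52 cycling cells. A barcode of 23596 UMIs held 44.6% of *Hspa1a* and 40.0% of *Hspa1b* UMIs in LPS iKO mouse 3. The heat shock values of cycling LPS iKO cells thus rest in part on few barcodes. *Pclaf* was at 304 and 319.5 CPM in cycling cells and at 3.21 and 13.4 in other cells. Other cells include those with 1 UMI of *Mki67* or *Top2a*, and their part in this difference was not tested.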

How the results depend on the processing

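The day 21 difference between genotypes changed sign with at least 1 *Mki67* and *Top2a* UMI (−0.183 points), with the highest tag rule (−0.131) and with library totals (−0.141), and ranged from −0.106 to 0.117 when each mouse was left out. It rests on 1 single-tag cycling cell per library. The endothelial minus mesenchymal share had an exact p of 0.125 with at least 1 UMI (5.06 points) and with the highest tag rule (4.20). It was 2.92 to 4.77 points without each mouse. The aerocyte difference was −15.6 to −12.9 points without each mouse, and 5 pairs cannot give a p under 0.0625. Between genotypes in cycling cells, no filter gave 47 higher and 41 lower genes, and leaving out LPS fl/fl mouse 2 gave 6 higher genes. Over the leave-outs the range was 6 to 14 higher and 3 to 6 lower. The planned gene tests at day 21 and against PBS iKO were not run.

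Within general-type cells the log2 changes of *Fibin* (0.14), *Apln* (1.06), *Tbx2* (0.59), *Icam1* (0.18), *Itgb5* (0.19) and *AW112010* (0.12) were positive where all cells gave negative ones. The fit with no replicate block called 3212 genes for state, against 3175 with the mouse as a block, with 2931 shared. DESeq2 called 2549 and other cells nearest in depth 2719 (2516 shared, all of the same sign). Few cells limit the precision, most of all at day 21 and in PBS iKO.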

Other observations

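Antigen presentation genes moved both ways in cycling cells. Over all 10300 genes tested, 15.6% were higher and 15.2% lower, and the counts of the lists named here are given against these shares. Of 14 MHC genes, 4 class I genes were higher, among them *H2-K1* at 0.42 ± 0.07, and 5 were lower, among them the class II chaperone *Cd74* at −0.63 ± 0.09. The class I gene *H2-T23* was lower too, at −0.72, and within general-type cells 5 of the 14 were higher and 8 lower. Class I genes are near copies of each other, so reads may be shared among them. Of 29 interferon-stimulated genes, 5 were higher and 6 lower, which lies near the shares over all genes. The peptide transporter *Tap1* (1.01), the immunoproteasome subunit *Psmb9* (0.79) and *Gbp5* (1.34) were higher, and the membrane proteins *Ifitm2* (−0.74 ± 0.07), *Ifitm3* (−0.41 ± 0.07) and *Bst2* (−0.29 ± 0.08) lower.

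Of 24 oxidative phosphorylation genes, 4 were higher, near the share over all genes, and none lower, with *Cox7a2*, a cytochrome oxidase subunit, at 0.44 ± 0.08. Of 14 glycolysis genes, 3 were higher and 6 lower. *Gapdh* was higher by 0.54 ± 0.07, while lactate dehydrogenase, *Ldha*, was at −0.50 ± 0.10, *Gpi1* at −0.35 ± 0.11 and aldolase, *Aldoa*, at −1.92. *Lrg1*, a leucine-rich glycoprotein secreted by activated endothelium, was at −1.99. All are log2 changes of cycling over other cells in the 6 LPS mice at day 7.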
